A study of Homo sapiens with 6 samples.

Results

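The chemokines of the CC and CXC families were examined in KMS27 myeloma cells. Members were the transcripts whose symbol, in the pairing of transcripts and symbols in the authors' deposited table, is CXCL9, CXCL10, CXCL11, CXCL16, CCL3, CCL4, CCL5, CCL22 or IL8, the older symbol of CXCL8. All gene IDs of a symbol were summed, which gave 9 genes with 25 transcripts, of 56638 genes with 215170 transcripts in all. The 9 genes were chosen from how they differed between the same 6 libraries, so their levels and differences are given as a description without a test. KMS27, an established human cell line, was derived from malignant plasma cells. Total RNA was sequenced after depletion of ribosomal RNA from 3 libraries labelled wild type and 3 labelled HA-TAZ, in which TAZ, the Hippo pathway coactivator encoded by WWTR1, was overexpressed with an HA peptide tag. The HA-TAZ libraries are numbered 1, 2 and 3 as in their titles, and the control libraries are lettered a, b and c. The control columns carry the name scr, which no label explains, and by elimination they were assigned to the wild type group. Titles in the wild type group contain HA, and whether those cells received a construct was not given, nor was the vector of HA-TAZ, its promoter or whether the cells are 1 clone. Nothing states that the libraries came from separate cultures, so p-values measure only the spread between these libraries, which may be technical.

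Chemokines are small secreted proteins that direct the migration of leukocytes along a gradient through receptors coupled to G proteins. CXCL9, CXCL10 and CXCL11 are the ligands of CXCR3 on activated T and NK cells and are classical targets of interferon and of NF-kB. CCL3, CCL4 and CCL5 are inflammatory CC chemokines that attract monocytes and T cells, and CCL3 is known in myeloma as an osteoclast-activating factor made by the malignant plasma cells.

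Promoter sequence is shown for the 6 members that RefSeq's table holds, to set matches to kappaB and to the interferon-stimulated response element beside the values: 4 of them were higher in HA-TAZ, CCL22 was lower and IL8 overlapped. The sequences are the 250 bases before the transcription start in RefSeq's annotation of GRCh38.p14, read on the strand of the gene, and capitals mark matches to a kappaB spelling or to the response element. The windows lie at chr4:76023498-76023747 for CXCL10, chr4:76036071-76036320 for CXCL11, chr4:76007510-76007759 for CXCL9 and chr17:36090144-36090393 for CCL3, all on the minus strand, and at chr16:57358533-57358782 for CCL22 and chr4:73740319-73740568 for IL8, both on the plus strand.
CXCL10: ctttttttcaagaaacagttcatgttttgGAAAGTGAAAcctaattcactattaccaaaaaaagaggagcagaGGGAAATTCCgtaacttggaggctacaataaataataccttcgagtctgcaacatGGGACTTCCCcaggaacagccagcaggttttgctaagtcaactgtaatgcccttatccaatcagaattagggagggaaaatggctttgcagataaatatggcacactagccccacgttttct
CXCL11: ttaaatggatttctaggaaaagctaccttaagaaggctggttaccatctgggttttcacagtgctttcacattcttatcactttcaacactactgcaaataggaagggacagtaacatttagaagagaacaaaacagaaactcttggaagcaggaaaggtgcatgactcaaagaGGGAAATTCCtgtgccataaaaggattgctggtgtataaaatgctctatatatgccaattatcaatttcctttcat
CXCL9: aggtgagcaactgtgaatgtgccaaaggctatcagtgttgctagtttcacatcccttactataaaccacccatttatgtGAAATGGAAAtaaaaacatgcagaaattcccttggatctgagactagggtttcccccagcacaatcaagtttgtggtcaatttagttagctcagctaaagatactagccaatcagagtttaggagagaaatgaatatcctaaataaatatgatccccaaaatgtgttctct
CCL3: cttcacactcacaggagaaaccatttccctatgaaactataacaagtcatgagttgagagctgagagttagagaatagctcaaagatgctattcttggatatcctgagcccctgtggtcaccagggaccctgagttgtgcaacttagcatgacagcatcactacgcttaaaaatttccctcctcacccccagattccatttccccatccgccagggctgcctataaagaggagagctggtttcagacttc
CCL22: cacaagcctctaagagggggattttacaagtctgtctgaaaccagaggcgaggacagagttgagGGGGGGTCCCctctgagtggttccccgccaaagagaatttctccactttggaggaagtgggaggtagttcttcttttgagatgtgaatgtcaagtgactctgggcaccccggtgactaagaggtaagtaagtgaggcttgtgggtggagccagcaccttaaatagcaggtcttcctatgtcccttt
IL8: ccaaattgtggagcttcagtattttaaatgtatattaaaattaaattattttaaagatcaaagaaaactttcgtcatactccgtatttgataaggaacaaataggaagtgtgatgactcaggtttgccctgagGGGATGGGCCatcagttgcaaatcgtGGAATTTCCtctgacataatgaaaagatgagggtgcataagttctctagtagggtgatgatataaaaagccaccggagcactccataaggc

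RefSeq's table held this window for 6 of the 9 members and not for CXCL16, CCL4 and CCL5. Motifs were searched on both strands, and positions are counted back from the transcription start, with -1 the base before it. The kappaB spelling GGGANNNNCC matched in CXCL10 from -177 to -168 and from -122 to -113. It matched in CXCL11 from -76 to -67, in IL8 from -117 to -108, and on the opposite strand in CCL22 from -186 to -177. The shorter kappaB spelling GGAANTTCC overlapped the first match of CXCL10 and the match of CXCL11, and stood on its own in IL8 from -91 to -83. Among 27305 promoter windows, 22.0% held GGGANNNNCC and 0.846% held GGAANTTCC, against 4 and 3 of the 6 member windows. The interferon-stimulated response element, spelled GAAANNGAAA, matched in CXCL10 from -221 to -212 and in CXCL9 from -171 to -162, and in 3.07% of all windows. The STAT spelling TTCNNNGAA, in 6.76% of all windows, matched in CXCL11 from -240 to -232. The AP-1 spelling TGANTCA, in 6.57% of all windows, matched in CXCL11 from -87 to -81 and in IL8 from -137 to -131. GGAATG, the core bound by the TEAD factors that TAZ works with, matched in none of the 6 member windows and in 12.0% of all windows. CCL3 held none of these spellings in its window. A match is a run of letters and not a measured binding site, and a window without a match says nothing of a factor.

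The targeted gene was checked first. WWTR1 was at 293, 306 and 293 TPM in HA-TAZ 1, 2 and 3 and at 2.69, 2.22 and 1.69 TPM in control a, b and c (exact two-sided permutation test, p = 0.1, the smallest that 3 against 3 libraries allow). TPM states a transcript's share of its library after correction for length, and it carries no read depth. Because a few abundant RNAs can move all shares, ratios are also given on scaled TPM, which is TPM divided by a factor per library. The factor was 0.864, 0.966 and 0.89 in HA-TAZ 1, 2 and 3 and 1.21, 1.09 and 1.06 in control a, b and c. Dividing by it thus raised every value above 0 in HA-TAZ and lowered every one in the controls. Scaling moved the median log2 difference of all 21011 genes tested from -0.27 to -0.02. Of the 8 plasma cell markers, 8 had a mean of at least 1 TPM, and they summed to 550 to 599 TPM in the HA-TAZ libraries and 653 to 743 TPM in the controls. On scaled TPM these sums overlapped, at 619 to 649 and 614 to 639, with CD38 called lower and SLAMF7 called higher by limma.

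Of the 9 chemokines, 6 were higher in every HA-TAZ library than in every control and 2 were lower, on deposited and on scaled TPM. Among 33178 genes with a mean of at least 0.1 TPM, 15.1% were higher without overlap and 16.6% lower on scaled TPM, and 3.77% and 37.3% on deposited TPM. The higher ones were the 3 ligands of CXCR3 and the 3 inflammatory CC chemokines CCL3, CCL4 and CCL5, the lower ones CXCL16 and CCL22, and IL8 overlapped. Together the 9 summed to 122, 130 and 117 TPM in HA-TAZ 1, 2 and 3, and to 42.1, 36.2 and 36.1 TPM in control a, b and c. CXCL10, CCL3 and CCL5 made up 96.1% to 97.1% of that sum in the HA-TAZ libraries and 92.7% to 94.1% in the controls. In such bulk libraries fewer cells that make a chemokine and less of its RNA in each cell cannot be told apart.

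**Figure D1:**
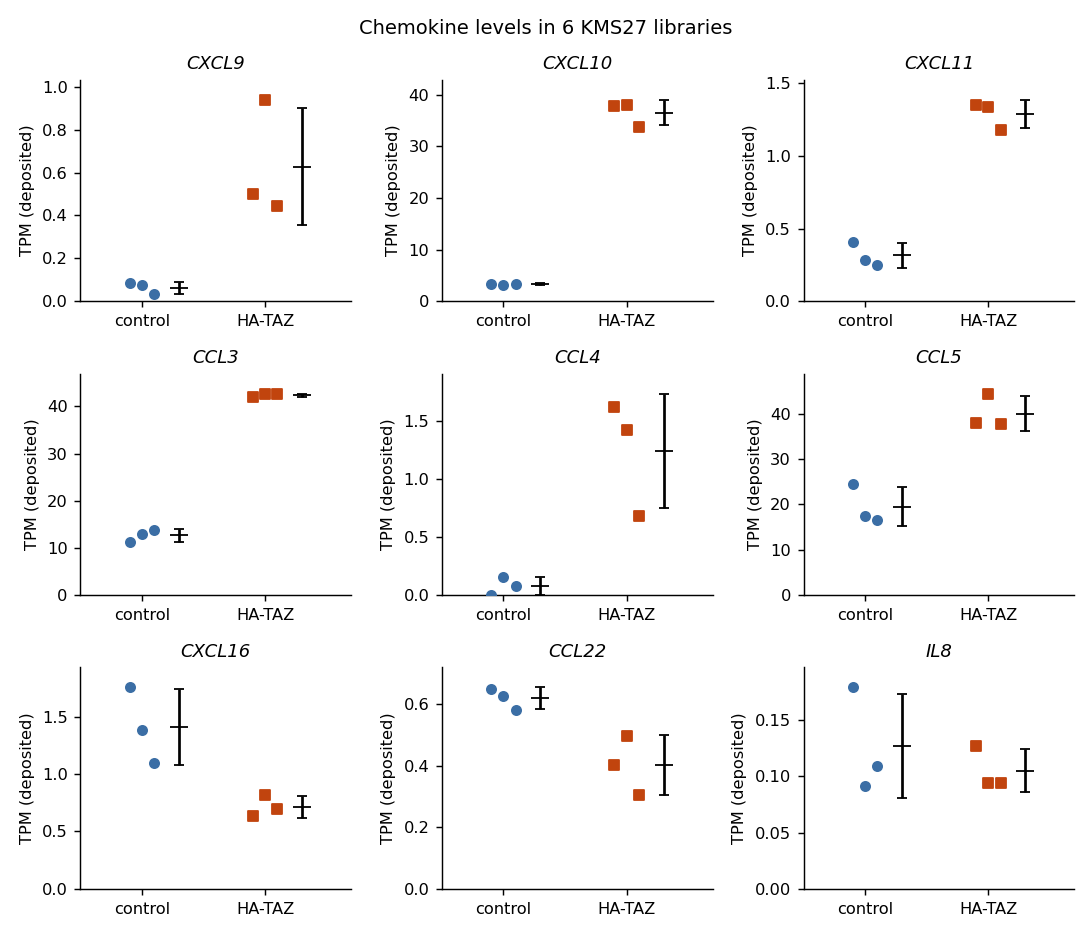
Deposited TPM of the 9 chemokines, 1 panel a gene, with an axis from 0 that differs between panels. Circles are the 3 control and squares the 3 HA-TAZ libraries, and the black bar is the mean with its SD (n = 3). The squares lie above all circles for CXCL9, CXCL10, CXCL11, CCL3, CCL4 and CCL5, below all circles for CXCL16 and CCL22, and among them for IL8.

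Of the CXCR3 ligands, CXCL10 (ENSG00000169245), the attractant of activated T cells also known as IP-10, was the most abundant. HA-TAZ 1, 2 and 3 held 37.8, 38.1 and 33.7 TPM, and control a, b and c held 3.39, 3.16 and 3.42 TPM. The means were 36.5 ± 2.46 TPM and 3.32 ± 0.144 TPM (SD, n = 3 each), a ratio of 11.0 on deposited and 13.6 on scaled TPM. The groups were far apart: the lowest HA-TAZ library stood above the highest control by many times the spread within either group. Its difference of 3.38 on the log2(scaled TPM + 1) scale was the fourth from the top among 21011 genes tested. In the authors' deposited table its single transcript with statistics, ENST00000306602.1, had an effect of 2.62 (SE 0.0917) on the natural log scale. The means of that table implied 2641 estimated counts in a typical HA-TAZ library and 192 in a typical control, with counting errors of 1.95% and 7.21%.

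CXCL11 (ENSG00000169248), the CXCR3 ligand that also binds the atypical receptor ACKR3, was far less abundant. HA-TAZ 1, 2 and 3 held 1.35, 1.33 and 1.17 TPM, and control a, b and c held 0.411, 0.284 and 0.250 TPM. The 3 HA-TAZ libraries lay close together and all above the highest control. The means were 1.29 ± 0.0978 TPM and 0.315 ± 0.0850 TPM (SD, n = 3 each), a ratio of 4.09 on deposited and 5.10 on scaled TPM. Its log2 difference was 0.92 with a pseudocount of 1 and 2.01 with a pseudocount of 0.1, since its control level lies under the former. The authors' deposited table gave ENST00000306621.3 an effect of 1.62 (SE 0.197, natural log), with an implied 132 estimated counts against 25.8.

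CXCL9 (ENSG00000138755), the CXCR3 ligand induced mainly by interferon gamma, was the lowest of the 3. HA-TAZ 1, 2 and 3 held 0.502, 0.939 and 0.444 TPM, and control a, b and c held 0.0833, 0.0759 and 0.0324 TPM. HA-TAZ 2 was at about the summed level of the other HA-TAZ libraries, and all 3 were above the controls. The means were 0.628 ± 0.271 TPM and 0.0639 ± 0.0275 TPM (SD, n = 3 each), a ratio of 9.84 on deposited and 12.1 on scaled TPM. Both ratios rest on a control level of an implied 8.98 estimated counts in the authors' deposited table. That table gave ENST00000264888.5 an effect of 2.48 (SE 0.329, natural log) and an implied 113 estimated counts in HA-TAZ.

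CXCL9, CXCL10 and CXCL11 lie beside each other on chromosome 4, and their protein-coding neighbours, in the gene order of GENCODE 29, were read to see whether the difference covered the whole stretch. Neighbours were picked by position alone, after the chemokine values were known. NAAA and SDAD1, on the side of CXCL9, had log2 differences of -0.13 and 0.22 on scaled TPM. ART3, which overlaps the cluster on the opposite strand, had -0.19, and NUP54, on the side of CXCL11, had 0.01. NAAA, SDAD1 and NUP54 were not called by limma, and ART3 was under the level for the test. SCARB2, the lysosomal membrane protein gene beyond NUP54, was called higher, with a log2 difference of 0.41 (limma adjusted p = 0.00673), against 3.38, 0.92 and 0.66 for CXCL10, CXCL11 and CXCL9, and its groups overlapped on deposited TPM. The difference between the 3 chemokines and their neighbours was not tested. Whether quantification used the strand is not stated, so reads of ART3 and of the chemokines cannot be told apart where they overlap.

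**Figure D2:**
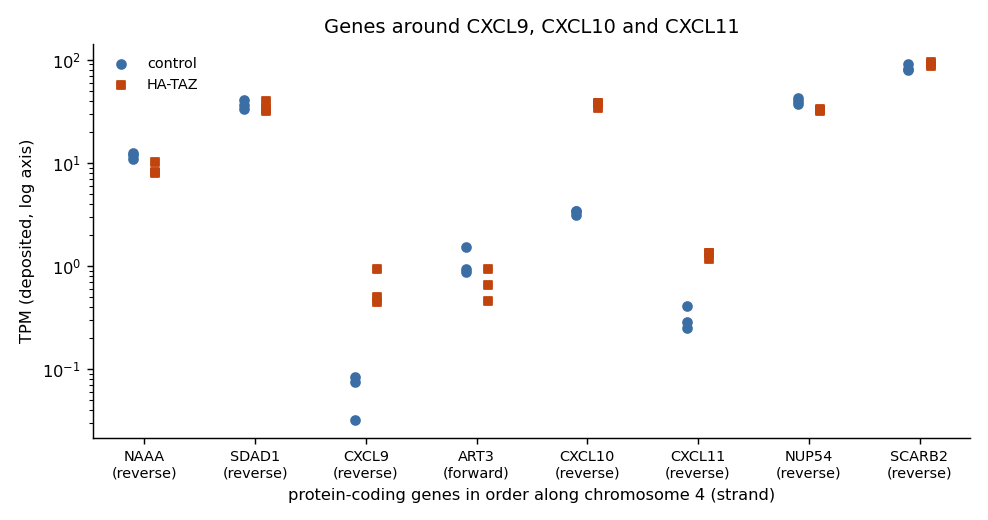
Deposited TPM on a log axis for the protein-coding genes around CXCL9, CXCL10 and CXCL11, in their order along chromosome 4 (not to scale), with the strand under each name. Circles are the control and squares the HA-TAZ libraries. The groups separate by most on this axis for the 3 chemokines, and those of ART3, between CXCL9 and CXCL10, overlap.

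Of the inflammatory CC chemokines, CCL3 (ENSG00000006075), also known as MIP-1 alpha, was at 42.0, 42.5 and 42.6 TPM in HA-TAZ 1, 2 and 3. It was at 11.2, 13.0 and 13.9 TPM in control a, b and c. The HA-TAZ libraries were almost equal, and every control was far under them. The means were 42.4 ± 0.313 TPM and 12.7 ± 1.38 TPM (SD, n = 3 each), a ratio of 3.34 on deposited and 4.10 on scaled TPM. Its log2 difference was 1.96, at rank 31 from the top among the genes tested.

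CCL3 had 2 transcripts above 0.5 TPM, which differed by unequal factors. ENST00000225245.5 was at 38.2 ± 0.296 TPM in HA-TAZ libraries and 9.93 ± 1.37 TPM in controls, and ENST00000470334.1 at 4.24 ± 0.422 TPM and 2.75 ± 0.186 TPM (SD, n = 3 each). The latter took 9.22%, 11.0% and 9.70% of the gene's TPM in HA-TAZ 1, 2 and 3, and 25.0%, 19.7% and 21.0% in control a, b and c. The shares did not overlap, so the less abundant transcript made up less of the CCL3 signal in every HA-TAZ library. In the authors' deposited table the effects were 1.57 (SE 0.121) and 0.653 (SE 0.118) on the natural log scale, with implied estimated counts of 1627 against 339 and of 407 against 212. The type of either transcript was not matched in GENCODE 29.

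CCL5 (ENSG00000161570 and ENSG00000271503), also known as RANTES, was the most abundant of the 9 in the controls and the second to CCL3 in HA-TAZ. HA-TAZ 1, 2 and 3 held 37.8, 44.4 and 37.7 TPM, and control a, b and c held 24.4, 17.5 and 16.6 TPM. The nearest libraries of the groups, HA-TAZ 3 and control a, were still apart by more than either SD. The means were 40.0 ± 3.84 TPM and 19.5 ± 4.28 TPM (SD, n = 3 each), a ratio of 2.05 on deposited and 2.54 on scaled TPM, and the log2 difference was 1.31. The annotation lists CCL5 under 2 gene IDs that carry the same values in each library, so either ID holds 20.0 ± 1.92 TPM and 9.76 ± 2.14 TPM (SD, n = 3 each), and the ratio is the same for both.

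Within CCL5, the main transcript ENST00000603197.1 and its copy ENST00000293272.3 each were at 18.2 ± 1.71 TPM in HA-TAZ libraries and 9.30 ± 1.98 TPM in controls (SD, n = 3 each). A minor transcript, ENST00000605509.1, with its copy ENST00000463941.1, was at 1.79 ± 0.238 TPM against 0.411 ± 0.213 TPM (SD, n = 3 each). The authors' deposited table gave the main transcript an effect of 0.906 (SE 0.0885) and the minor one 1.76 (SE 0.314) on the natural log scale. Each copy of the minor one had only 11.4 implied estimated counts in a control. GENCODE 29 lists ENST00000603197.1 and ENST00000605509.1 as protein-coding.

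CCL4 (ENSG00000129277), also known as MIP-1 beta, was scarce. HA-TAZ 1, 2 and 3 held 1.62, 1.42 and 0.684 TPM, and control a, b and c held 0, 0.156 and 0.0786 TPM. Every HA-TAZ library stood above every control, though HA-TAZ 3 had less than 1 TPM. The means were 1.24 ± 0.493 TPM in HA-TAZ and 0.0782 ± 0.0780 TPM in the controls (SD, n = 3 each), and no ratio is given because control a is listed at 0. Its log2 difference was 1.12 with a pseudocount of 1 and 3.10 with 0.1. Its 2 transcripts, ENST00000250151.4 and ENST00000394495.1, had effects of 3.01 (SE 0.773) and 2.86 (SE 1.02) in the authors' deposited table (natural log), of which the first had a q-value of 0.00415 and the second one of 0.0751. Both rest on under 1 implied estimated count in a control.

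**Figure D3:**
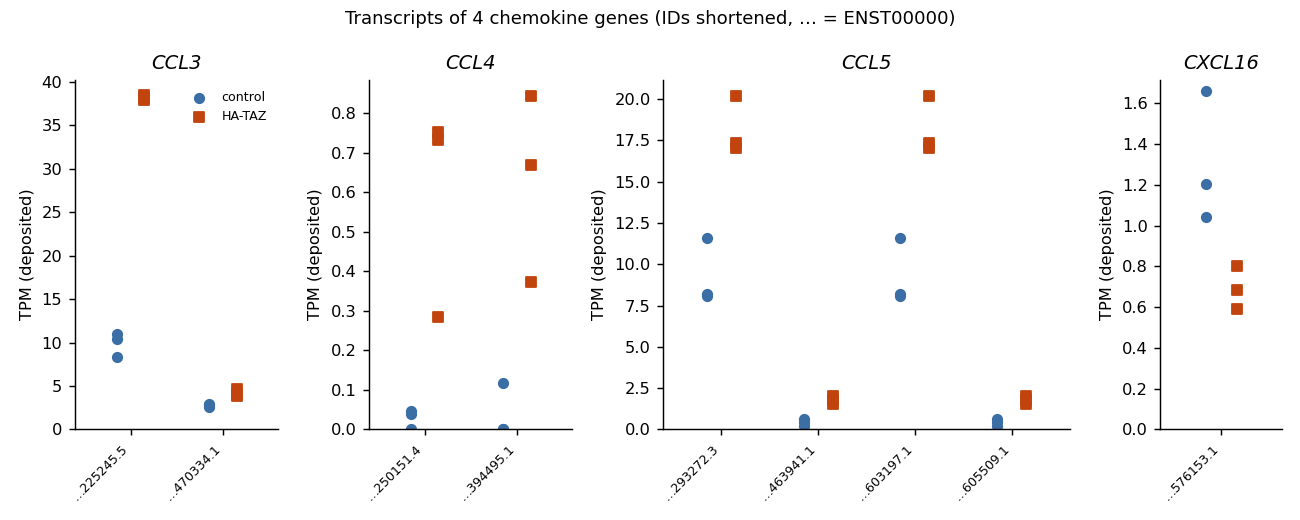
Deposited TPM of the transcripts of CCL3, CCL4, CCL5 and CXCL16 with a mean of at least 0.5 TPM in either group, with an axis from 0 that differs between panels. Circles are the control and squares the HA-TAZ libraries. The first CCL3 transcript separates widely and the second little, the 4 CCL5 transcripts are 2 pairs of copies with equal values, and the CXCL16 transcript is lower in HA-TAZ.

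CCL3 and CCL4 each have near-identical gene copies, among which reads can be split, so the levels of single copies are uncertain. CCL3L3, summed over 2 gene IDs, was at 0.451, 0.635 and 0.700 TPM in HA-TAZ 1, 2 and 3 and at 0, 0.118 and 0.143 TPM in control a, b and c. CCL4L2 was at 0.124, 0.295 and 0.116 TPM and at 0, 0 and 0.0294 TPM. CCL3L1 and CCL4L1 were above 0 in every HA-TAZ library and listed at 0 in every control. The copies were higher without overlap in HA-TAZ, at levels far under that of CCL3. Since reads can be split, these values are not independent of those of CCL3 and CCL4. Among genes with a mean of at least 0.1 TPM, which only CCL3L3 of these copies reached, 15.1% were higher without overlap on scaled TPM. On deposited TPM it was 3.77%.

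CXCL16 (ENSG00000161921), a chemokine made as a membrane-anchored form that is shed by ADAM10 and ADAM17 and binds CXCR6, was lower. HA-TAZ 1, 2 and 3 held 0.631, 0.819 and 0.694 TPM, and control a, b and c held 1.75, 1.38 and 1.09 TPM. The groups did not overlap, but the gap between HA-TAZ 2 and control c was smaller than the spread of the controls. The means were 0.714 ± 0.0957 TPM and 1.41 ± 0.331 TPM (SD, n = 3 each), a ratio of 0.507 on deposited and 0.629 on scaled TPM. Of this signal, 97.0% in HA-TAZ and 92.4% in the controls came from ENST00000576153.1, which GENCODE 29 types as a processed transcript without a coding sequence. The 3 protein-coding transcripts of CXCL16 each had a mean under 0.02 TPM in both groups. The authors' deposited table gave ENST00000576153.1 an effect of -0.39 (SE 0.167, natural log) with a q-value of 0.170.

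CCL22 (ENSG00000102962), a ligand of CCR4 known for attracting regulatory T cells, was at 0.404, 0.499 and 0.304 TPM in HA-TAZ 1, 2 and 3. It was at 0.651, 0.628 and 0.583 TPM in control a, b and c. Each HA-TAZ library lay under each control, but narrowly on scaled TPM, with 0.516 in HA-TAZ 2 and 0.538 in control a. The authors' deposited table implied counting errors of 11.1% in a typical HA-TAZ library and 9.95% in a typical control. The means were 0.402 ± 0.0975 TPM and 0.621 ± 0.0349 TPM (SD, n = 3 each), a ratio of 0.648 on deposited and 0.797 on scaled TPM. Its single transcript with statistics had an effect of -0.22 (SE 0.164, natural log; q-value 0.557), per the authors' deposited table.

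IL8 (ENSG00000169429), the neutrophil attractant that binds CXCR1 and CXCR2, was at 0.127, 0.0945 and 0.0939 TPM in HA-TAZ 1, 2 and 3 and at 0.179, 0.0916 and 0.110 TPM in control a, b and c. The groups overlapped, and the sign of its log2 difference depended on the scaling, with 0.01 on scaled and -0.03 on deposited TPM. With an implied 11.7 estimated counts in HA-TAZ and 9.73 in a control in the authors' deposited table, counting alone gives the value of a typical library an error of 29.2% and 32.1%. The effect of its transcript in that table was 0.177 (SE 0.494, natural log; q-value 0.917), so this depth leaves its difference imprecise.

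Within the HA-TAZ libraries the levels fell into an upper set of CCL3, CCL5 and CXCL10 and a lower set of all others. CCL3 and CCL5 overlapped between libraries, as did CCL5 and CXCL10. In the lower set the order was CXCL11, CCL4, CXCL16, CXCL9, CCL22 and IL8, where CCL4 overlapped CXCL11, CXCL16 and CXCL9, and CXCL9 overlapped CXCL16 and CCL22. In the controls the order was CCL5, CCL3, CXCL10, CXCL16, CCL22, CXCL11, IL8, CCL4 and CXCL9, and neighbours overlapped only among the last 3. Thus CXCL16 and CCL22 stood above CXCL11 in the controls and under it in HA-TAZ.

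Of the 9 members, 4 passed the level for the test, a mean of 1 TPM. Among them CXCL10, CCL3 and CCL5 were called higher by limma and CXCL16 was not called, beside 8.52% called (5.49% higher and 3.03% lower) among all 21011 genes tested. The other 5 members were not tested. Since the members were chosen on this contrast, the count is a description. Statistics were given for 14 of the 25 member transcripts in the authors' deposited table. Of these, 10 had a positive effect and 0 a negative one at a q-value under 0.05, beside 4.08% and 1.60% of 109487 transcripts. Since the CCL5 copies repeat the same statistics, these are 8 of 12 distinct results.

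**Figure D4:**
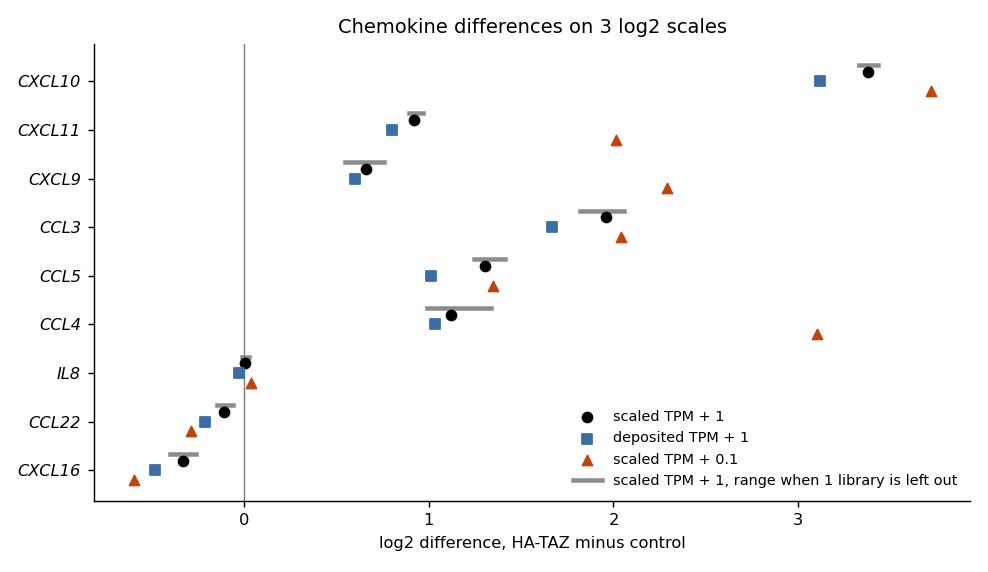
Log2 difference (HA-TAZ minus control) of the 9 chemokines on scaled TPM with a pseudocount of 1 (circles) or 0.1 (triangles) and on deposited TPM with a pseudocount of 1 (squares). Gray bars give the range of the first scale when any 1 library is left out. The smaller pseudocount moves the scarce genes by most, such as CCL4 from 1.12 to 3.10 and CXCL9 from 0.66 to 2.29, and IL8 lies at 0 on all 3 scales within 0.1.

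The rest of the chemokine system was read from gene lists. All 12 other CXC chemokines were under the level for the test, with a highest mean of 0.274 TPM, that of CXCL13. Of 24 other CC chemokines only CCL28, a mucosal chemokine, was tested, and it was not called (log2 difference -0.34, limma adjusted p = 0.0901, 0 of 1 called). On deposited TPM CCL28 was called lower, as were 3428 of all 21011 genes tested. None of the 3 chemokines of the XC and CX3C classes, among them CX3CL1 with the highest mean, 0.122 TPM, was tested.

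Few genes of the receptor and protease lists were tested, so counts of 0 called, beside 8.52% among all 21011 genes tested, say little. Of 17 chemokine receptors 13 were under the level for the test. The other 4 were tested and 0 called, with a median log2 difference of 0.05. CXCR4, the marrow homing receptor and the most abundant of them, was at 11.6, 11.9 and 11.0 TPM in HA-TAZ 1, 2 and 3 and at 15.3, 13.4 and 12.6 TPM in control a, b and c (log2 difference on scaled TPM 0.05, limma adjusted p = 0.644). CXCR3, the receptor of CXCL9, CXCL10 and CXCL11, had a log2 difference of 0.06 (limma adjusted p = 0.761). CXCR1, a receptor of IL8, was listed at 0 in all 6 libraries. CCR7, the lymph node homing receptor, was under the level for the test with means of 0.239 TPM in HA-TAZ and 0.00325 TPM in the controls, and was chosen for naming after its values were seen. Of 5 atypical receptors, 2 were tested and 0 called, among them ACKR2, the most abundant (log2 difference -0.11, limma adjusted p = 0.529). Of the 3 chemokine proteases, 2 were tested and 0 called; ADAM10, a sheddase of CXCL16, had a log2 difference of -0.31 (limma adjusted p = 0.0564). It was called lower on deposited TPM, as were 3428 of all 21011 genes tested.

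Genes of the signals known to induce the members were called higher in part, and a link to the members was not tested. Among all 21011 genes tested, 5.49% were called higher and 3.03% lower, with a median log2 difference of -0.02. Of 14 genes of the interferon signal, 12 were tested and 5 were higher, 0 lower, with a median log2 difference of 0.35. These were IRF1 (log2 difference 1.02, limma adjusted p = 0.00163), which binds response elements of interferon targets, IRF9 (0.91, 0.0116), IFNGR2 (0.54, 0.0272), TYK2 (0.35, 0.0436) and STAT2 (0.34, 0.0318). On deposited TPM 265 of all 21011 genes tested were called higher and 3428 lower. There 2 of the 12 interferon genes were called higher and 1 lower, and the differences of STAT2 and TYK2 were 0.04 and 0.05. IRF1 was called in each of the 6 fits without 1 library, IRF9 in all but those without HA-TAZ 1 or HA-TAZ 2, TYK2 only in the one without control a, and STAT2 and IFNGR2 in none of them. TYK2 was also not called on deposited TPM, with scaling over genes of at least 10 TPM, with no filter on level or in limma without the trend. Among ligands, IFNB1 was under the level for the test at 0.559, 0.510 and 0.445 TPM in HA-TAZ 1, 2 and 3 and at 0.0906, 0.0215 and 0.0325 TPM in control a, b and c, and was chosen for naming after its values were seen. IFNG had a TPM of 0 in every HA-TAZ library.

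Of 20 NF-kB genes, 16 were tested and 8 were higher, 0 lower, beside 5.49% and 3.03% of all genes tested. The median log2 difference was 0.39 in the list and -0.02 among all genes tested. The inhibitors among the 8 were TNFAIP3 (log2 difference 1.09, limma adjusted p = 0.00371), NFKBIE (0.92, 0.0107), NFKBIA (0.62, 0.00590) and NFKBIB. The subunits RELB (1.18, 0.00863) and NFKB2 (0.63, 0.0218), which pair in the noncanonical pathway, and the cytokine LTA (0.90, 0.0162) were also higher, with REL. On deposited TPM 7 were called higher and 0 lower, beside 265 and 3428 of all 21011 genes tested. TNFAIP3 and NFKBIA were called in each of the 6 fits without 1 library, and RELB in all but the one without HA-TAZ 1 (limma adjusted p = 0.0505). NFKBIE was called in 4 of these fits, LTA in 3, NFKB2 in 2, NFKBIB in 1 and REL in 0, and REL was the one not called on deposited TPM. TNF itself was under the level for the test.

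Of 7 genes that govern mRNA decay, most through the AU-rich elements of many chemokine mRNAs, 7 were tested and 3 were higher, 0 lower. Among all genes tested 5.49% were called higher and 3.03% lower. The median log2 difference was 0.32 in the list and -0.02 among all genes tested. ZFP36, the decay factor tristetraprolin, had a log2 difference of 1.11 (limma adjusted p = 0.0104), against 0.36 (0.0231) for its relative ZFP36L1 and 0.32 (0.0407) for the stabilising factor ELAVL1. Only ZFP36 was called on deposited TPM, where 265 of all 21011 genes tested were called higher and 3428 lower. In that setting ZFP36L1 and ELAVL1 had differences of 0.07 and 0.02. On scaled TPM ZFP36 lost its call without HA-TAZ 1 (limma adjusted p = 0.0557). ZFP36L1 and ELAVL1 were called in none of the fits without 1 library. HNRNPD, the most abundant of the list, was not called (0.06, limma adjusted p = 0.514). Over these 9 lists 16 genes were called higher and 0 lower, and of these 16 calls 3 were kept without HA-TAZ 1, 5 without HA-TAZ 2, 7 without HA-TAZ 3, 11 without control a, 8 without control b and 9 without control c.

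**Figure D5:**
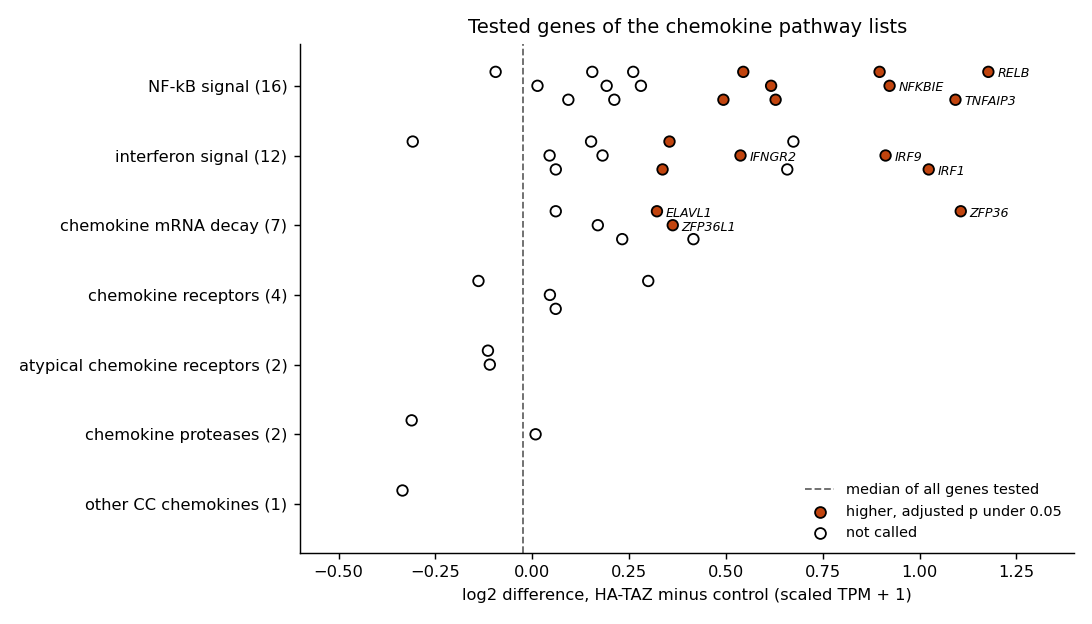
Log2 difference on scaled TPM + 1 (HA-TAZ minus control) of each tested gene of 7 chemokine pathway lists, with the number tested after each name. Filled circles are genes called higher at a limma adjusted p under 0.05, and the dashed line is the median of all genes tested, -0.02. Called genes appear in the NF-kB, interferon and mRNA decay lists and in none of the 4 others, which hold few tested genes. Among all genes tested 8.52% were called.

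Genes most like CXCL10 and CCL5, the CXC and the CC member with the highest mean over the 6 libraries, were named by Pearson's r of log2(scaled TPM + 1), as a description in which the points share their groups. For CXCL10 these were UBD (r = 0.9996), ANKRD1 (0.9993), HLA-DRB1 (0.9992), SLFN5 (0.9992) and TRIB1 (0.9989). For CCL5 they were EIF1 (r = 0.9986), IL2RG (0.9984), ZXDB (0.9973), TNFRSF9 (0.9973) and MYO9B (0.9971). With 2 groups of 3, many genes reach such values: 130 genes had r over 0.99 with CXCL10 and 32 with CCL5. All 10 named genes were higher by limma, beside 5.49% of all genes tested. They were picked for likeness to members chosen on this contrast, which largely fixed these calls. Their log2 differences ran from 0.25 for MYO9B to 4.42 for UBD, though on deposited TPM MYO9B was lower in HA-TAZ, with means of 24.4 and 25.2 TPM.

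Markers of other cells that make these chemokines were low. Monocyte and macrophage markers (8 genes) summed to 2.16 to 2.19 TPM in HA-TAZ and 2.57 to 4.29 TPM in the controls, with S100A8 and S100A9 listed at 0 in all libraries. T cell markers (5) summed to 1.34 to 1.47 TPM and 2.25 to 2.56 TPM, and NK cell markers (4) to 2.90 to 4.16 TPM and 3.90 to 4.15 TPM. Dendritic cell markers (4) summed to 0.898 to 1.22 TPM and 0.704 to 1.25 TPM, with CD1C at 0. Neutrophil markers (4) summed to 0.733 to 0.940 TPM and 1.50 to 2.09 TPM, with ELANE and FCGR3B at 0. Stromal markers (5) summed to 3.32 to 4.07 TPM and 3.85 to 5.18 TPM, and endothelial markers (3) to 1.69 to 2.25 TPM and 2.73 to 4.12 TPM. CXCL10, CCL3 and CCL5 each exceeded every one of these sums in the HA-TAZ libraries. There CXCL9, CXCL11 and CCL4 lay under the monocyte and macrophage, NK cell, stromal and endothelial sums. In the controls CXCL10, at 3.16 to 3.42 TPM, lay under the NK cell and stromal sums. Which cells made the chemokines was not tested.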

How the data were processed

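The 6 libraries of total RNA were depleted of ribosomal RNA and sequenced in pairs of 100 bases, per the labels' protocols. The submitters' processing notes name kallisto 0.46.0, sleuth 0.30.0 and the genome build GRCh37, and the annotation release is not given in the sources used here. The authors deposited TPM per transcript, which sums to 1000000 in each library and keeps no depth. The authors' deposited table of their comparison holds natural log effects and means of estimated counts, p-values and q-values per transcript, per the file headers.

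Symbols were taken from that table, and TPM was summed per symbol (56638 genes) and divided by a median-of-ratios factor per library. Genes with a mean of at least 1 TPM (21011) were tested with limma 3.58.1 with a trend, in R 4.3.3, as a two-sided test on log2(scaled TPM + 1), adjusted after Benjamini and Hochberg, with a threshold of 0.05. This scale understates differences of genes under 1 TPM. All adjusted p-values without another source are limma's. GENCODE 29 gave transcript types and gene order, and RefSeq (GRCh38.p14) the promoters. Named genes were the 9 members and WWTR1. They also include, per list, up to 6 called genes with the smallest adjusted p and the most abundant gene, the 5 genes most like CXCL10 and CCL5, and transcripts of at least 0.5 TPM. The members and lists were chosen with earlier results of these data known. Some genes of these lists are not reported here and were left out of the list counts.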

Additional observations from a re-analysis of the deposited data

How the results depend on the processing

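The number of chemokines higher without overlap stayed at 6 with TPM as deposited, with scaling over genes of at least 10 TPM and with gene IDs kept apart; the other alternatives, among them leaving out a library, could not lower it. The count of 1790 genes called (6652 at an unadjusted p under 0.05) became 3693 with TPM as deposited, 755 with no filter on level and 892 in limma without the trend, and 132 to 706 when 1 library was left out. Of all calls 64.4% were higher, against 7.18% with TPM as deposited and 41.4% with scaling over genes of at least 10 TPM. The 16 list genes called higher became 10 with TPM as deposited (and 3 called lower) and 3 to 12 with 1 library left out, and lay between 13 and 19 under the other alternatives. Of these 16 calls, 3 were called in all 6 fits with 1 library left out. CXCL10, CCL3 and CCL5 were called in each of these fits and under each other alternative. These members were chosen on this contrast, so their calls are a description and not a test of them. Log2 differences of the members moved beyond the spread in 12 of 63 cases, with TPM as deposited or a pseudocount of 0.1, and in 0 of 54 with 1 library left out. Depth per library was unknown. No paired analysis was possible because the control columns have a name found in no label, so no control could be given a sample number.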
